A study of Mus musculus with 12 samples.

Results

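Mouse gene annotations hold many models that carry only a clone or catalogue name, with a symbol that starts with Gm and a number or ends in Rik. This report describes the 28 such models that were at least 2 times higher in embryos 3 h after irradiation, in the libraries labelled p53 knockout, than in any untreated or wild-type-labelled library. They were selected on measured values. The lower TPM + 1 of both 3 h libraries labelled knockout had to reach 2 times the highest TPM + 1 of 8 libraries, which are called the ceiling here (the untreated libraries of both labels and the irradiated libraries labelled wild type). TPM is a transcript abundance scaled for gene length and to a fixed sum within each library. The deposited table lists 53647 gene IDs, of which 26755 have such a catalogue name, and 2003 of those reached 1 TPM in at least 2 libraries. The 28 models are 1.398% of these 2003. Every one of them passes that low-value filter through its 3 h values, so the count says nothing about models too low to be measured.

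The study sequenced polyadenylated RNA of whole mouse embryos at embryonic day 9.5. Pregnant mice received X-rays to a dose of 30 Gy at 5 Gy per minute, and embryos labelled p53 +/+ (wild type) or p53 -/- (knockout) were compared untreated, at 1 h and at 3 h. Each of the 6 groups holds 2 libraries, numbered 1 and 2, 12 in all. The labels give no strain, no deleted exon and no number of embryos per library, and leave unsaid if 1 litter or several supplied a group, so p-values measure only the spread between these libraries. The deposited values keep no read depth, and no counting error can be given.

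The p53 readouts went against the labels. Cdkn1a, the cell cycle inhibitor p21 and a classic p53 target, stood at 444 and 499 TPM in the 3 h libraries labelled knockout and at 76.2 and 79.4 TPM in those at 1 h, against 5.38 to 8.36 TPM in the other 8. Trp53 itself was at 209.5 to 250 TPM in the 4 irradiated libraries labelled knockout. It was at 66.8 to 114 TPM in the 4 irradiated libraries labelled wild type. Untreated libraries 1 and 2 stood at 265 and 79.1 TPM with the knockout label and at 114 and 211 TPM with the wild-type label. Each untreated pair thus differed widely, and the one labelled knockout is the baseline of the differences from untreated libraries below. Whether an untreated pair mixes genotypes was not tested. Groups are therefore named by their labels throughout. The 1 h libraries numbered 2 stood apart in both labels: the share of TPM on ribosomal protein genes was 18.6% and 18.7% in them and 12.6% to 14.8% elsewhere. Catalogue-named models held 3.81% and 3.86% of their TPM and 6.19% to 8.79% of that of the other 10.

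Markers of erythroid cells, neural tube, somites and heart were found in all 12 libraries, as the labelled tissue requires, but their sums moved with the 3 h group labelled knockout. Neural tube markers summed to 113 to 118 TPM there against 189.8 to 288.7 in the other 10 libraries, and somite markers to 47.6 to 57.5 against 65.4 to 106.7. Heart markers summed to 1887 to 2115 TPM against 740.8 to 1325, and primitive erythroid markers to 11020 to 13310 against 1928 to 10540. Of tissues that a dissection can carry along, decidua markers summed to 74.5 to 75.7 TPM against 36.6 to 44.5. Most of that sum came from Des, a gene that muscle also expresses. Over the 12 libraries, Dcn was at 2.9 to 8.76 TPM, Htra3 at 1.12 to 3.58 and Bmp2 at 1.95 to 5.93. Pgr was at 0.17 to 0.59 TPM and Prl8a2 at 0. Trophoblast markers summed to 7.61 to 9.41 TPM against 2.68 to 5.67. Plac1 was at 2.42 to 6.75 TPM and Ascl2 at 0.11 to 4.01, with 1 TPM or more in 2 libraries. Prl3d1, Prl2c2 and Gcm1 were at 0.19 TPM or less and Tpbpa at 0 in all 12. Visceral endoderm markers (158 to 425.8 against 22.1 to 229.5 TPM) overlapped, and adult blood markers (2781 to 3871 against 393 to 2614) did not. Most of the adult blood sum came from the alpha-globin genes Hba-a1 and Hba-a2. Over the 12 libraries, Hbb-bs was at 8.54 to 37.95 TPM, Hbb-bt at 0.8 to 20.14 and Ptprc at 0.02 to 0.39. Carry-over of maternal blood, decidua or trophoblast was not tested. The part of these shifts in the values of the 28 models was not tested. In whole embryos, a change in the number of cells of a type and a change in RNA per cell cannot be told apart.

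As background, p53 is a transcription factor that is stabilised after DNA breaks and switches on genes for cell cycle arrest, cell death and repair. It binds a response element made of a pair of decamers. Among its targets are genes for RNAs that are not translated, the best known being the primary transcript of the microRNA miR-34a, whose short product lowers mRNAs of cell cycle and survival proteins through pairing of its seed. A catalogue name says only that no approved gene name had been given. Behind such a name can stand a protein-coding gene, a long noncoding RNA, an antisense transcript or a pseudogene.

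A pair of the 28 models, Gm37795 and Gm13067, flanks the miR-34a gene, so its sequences are shown first. In the GENCODE M21 annotation, Gm37795 is an unspliced model of 2459 bases, of the class still to be checked by experiment, that begins inside the Mir34a hairpin on the same strand. Gm13067, a spliced long intergenic noncoding RNA, lies upstream on the same strand and ends 11477 bases before the hairpin. The hairpin as RefSeq gives it (GRCm38.p6, chr4:150068454-150068555, plus strand) is printed with the 17 bases that Gm37795 shares in capitals. The mature arms follow, with the seed, bases 2 to 8, in capitals, and below them the other mature miRNAs of the RefSeq table with the same seed as the 5p arm.
Mir34a hairpin: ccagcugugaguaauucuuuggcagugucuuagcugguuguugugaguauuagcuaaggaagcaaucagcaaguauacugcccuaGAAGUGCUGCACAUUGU
mmu-miR-34a-5p: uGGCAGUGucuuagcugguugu
mmu-miR-34a-3p: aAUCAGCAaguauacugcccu
mmu-miR-34b-5p: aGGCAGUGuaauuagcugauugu
mmu-miR-449a-5p: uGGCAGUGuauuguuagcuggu
mmu-miR-449c-5p: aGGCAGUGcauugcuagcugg
The 5p seed is held by 4 mature miRNAs of the table and the 3p seed by 1. The shared 17 bases lie at the 3′ end of the hairpin, after both mature arms. Mir34a itself was listed at 0 TPM in all 12 libraries; libraries of polyadenylated RNA of this kind do not capture hairpins or mature miRNAs.

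Promoters, taken here as 250 bases before to 50 after a RefSeq start, are shown for 3 models. These are the one with the highest 3 h level, the other one with a match to the p53 decamer, and Gm13067 upstream of Mir34a. For Gm13067 the RefSeq start lies farther upstream than the GENCODE M21 start, which is 19441 bases before the start of the hairpin. The Gm13067 window is therefore not the promoter of the GENCODE M21 model, whose own start was not searched for sites. Capitals mark matches to the p53 response element decamer on either strand.
1700007K13Rik promoter (GRCm38.p6, chr2:28466275-28466574, minus strand): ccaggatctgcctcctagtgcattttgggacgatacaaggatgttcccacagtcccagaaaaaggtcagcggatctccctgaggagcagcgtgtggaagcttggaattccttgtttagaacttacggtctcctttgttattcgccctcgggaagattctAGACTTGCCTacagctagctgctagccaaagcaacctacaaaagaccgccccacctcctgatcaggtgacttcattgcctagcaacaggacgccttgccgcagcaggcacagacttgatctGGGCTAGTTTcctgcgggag
D630023F18Rik promoter (GRCm38.p6, chr1:65123165-65123464, minus strand): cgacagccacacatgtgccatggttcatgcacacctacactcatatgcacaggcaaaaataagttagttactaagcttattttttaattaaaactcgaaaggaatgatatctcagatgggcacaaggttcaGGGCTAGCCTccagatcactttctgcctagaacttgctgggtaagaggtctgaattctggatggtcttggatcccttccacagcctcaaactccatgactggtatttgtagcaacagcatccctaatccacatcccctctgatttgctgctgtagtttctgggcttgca
Gm13067 promoter (GRCm38.p6, chr4:150029155-150029454, plus strand): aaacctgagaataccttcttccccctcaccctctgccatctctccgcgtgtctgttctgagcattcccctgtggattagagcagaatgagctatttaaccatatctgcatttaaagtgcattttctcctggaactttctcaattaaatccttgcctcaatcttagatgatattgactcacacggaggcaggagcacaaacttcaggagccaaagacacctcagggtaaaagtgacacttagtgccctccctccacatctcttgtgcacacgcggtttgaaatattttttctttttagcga
RefSeq promoters matched 12 of the 28 models by symbol, with 15 promoters. The decamer was found in 2 of the 15 (13.33%), against 8.356% of all 32851 promoters in the table, 5.778% of those of catalogue-named models tested and 12.53% of those of the named genes that met the same fold rule. In 1700007K13Rik the matches begin at -91 and 31 from the start, and in D630023F18Rik at -119. A full element of 20 bases, 2 adjoining decamers with at most 2 mismatches outside their cores, was in 0 of the 15 and in 0.1583% of all promoters. It was in 1.393% of the promoters of named genes that met the rule. Decamer pairs with bases between them were not searched for, so the 0 of the 15 covers adjoining decamers only. A match is a description of letters in a window of 300 bases, not a bound site, and positions refer to an earlier genome build than the GRCm39 that the submitters name.

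By annotated type, the 28 models are mostly RNAs without an annotated protein. GENCODE M21 classes 18 of them (64.29%) as noncoding and not pseudogenes, against 35.8% of the 2003 catalogue-named models tested. These 18 are 6 long intergenic RNAs, 6 antisense RNAs, 3 processed transcripts, 2 unspliced models to be checked and 1 RNA from a bidirectional promoter. A further 8 (28.57%) are protein-coding, against 21.42% of the 2003. The class of processed pseudogenes, 737 of the 2003, is represented by 1 model, Gm44911, and the class of transcribed processed pseudogenes, 48 of the 2003, by 1, 5033404E19Rik. RefSeq, which matched 18 of the 28 by symbol, differs for Gm9949, which it classes as protein-coding. Single-exon models are 6 of the 28 (21.43%) against 50.67%, the median exonic length is 1740 bases against 1050, and the median GC content 52.12% against 49.23%. These are descriptions with no test.

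**Figure D1:**
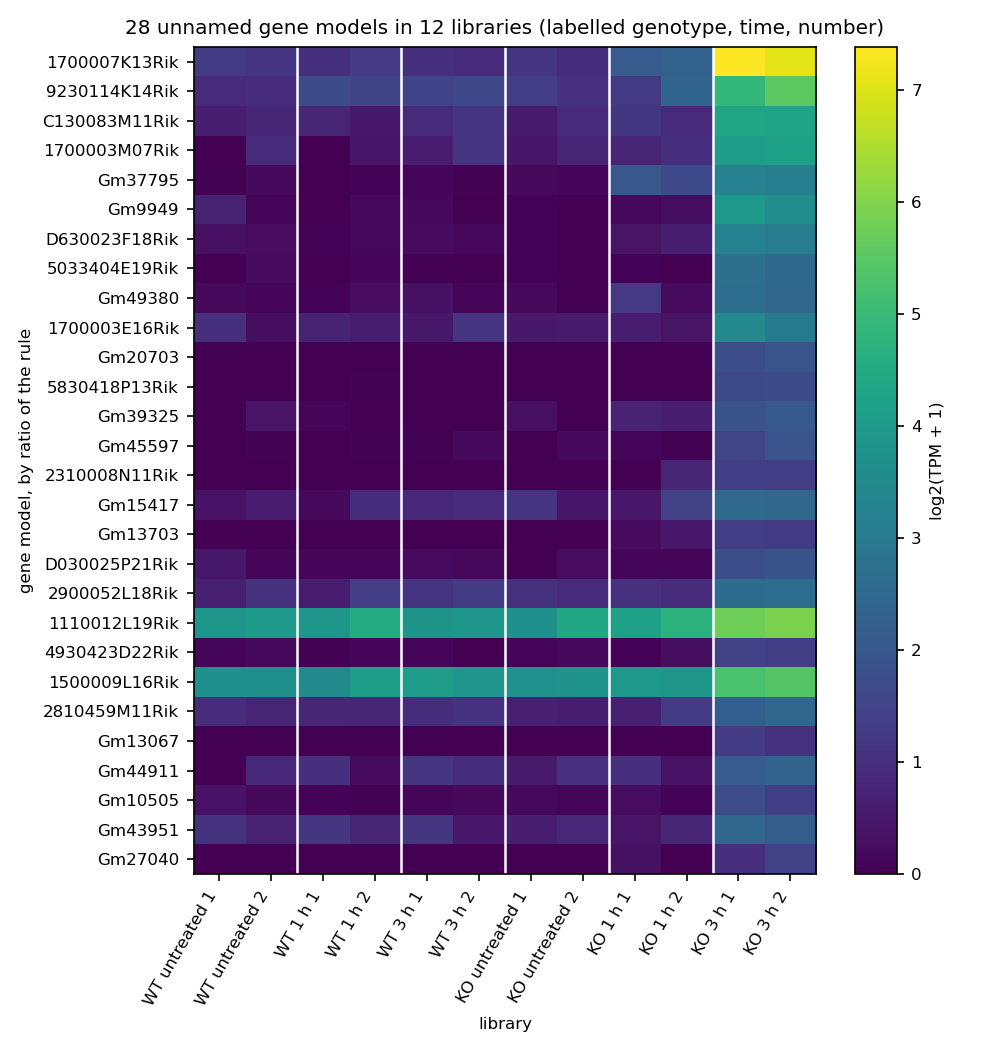
Heat map of log2(TPM + 1) of the 28 catalogue-named models (vertical, ordered by the ratio used in the rule) in all 12 libraries (horizontal, by label, time and number; white lines part the groups). The brightest cells are the 3 h libraries labelled knockout, which the rule guarantees; 1110012L19Rik and 1500009L16Rik are the only models above 10 TPM in ceiling libraries.

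Most of the 28 were low even at 3 h, and a few carried most of the signal. The mean of both 3 h libraries labelled knockout was above 10 TPM for 7 models, between 5 and 10 TPM for 5 and under 5 TPM for 16, with a median of 4.36 TPM. Summed over the 28, the level was 416.5 and 403 TPM in these libraries and between 33.03 and 60.04 TPM in the other 10. The ratio that the rule used was above 4 for 9 models, between 3 and 4 for 2 and under 3 for 17, with a median of 2.58. The 2 libraries of the 3 h group did not differ in a common direction: 14 models were higher in library 1 and 14 in library 2, with ratios of library 2 to library 1 from 0.677 to 1.71.

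The protein-coding models come first. 1700007K13Rik, now called Pierce1, encodes a protein of the microtubules of cilia and was first described as a gene induced by p53 in cells without Rb. 1700007K13Rik stood at 1.47 and 1.27 TPM untreated, 1.01 and 1.34 at 1 h and 1.02 and 0.88 at 3 h with the wild-type label (library 1 first in each pair). In those labelled knockout, 1700007K13Rik stood at 1.17 and 0.97 TPM untreated, 3.36 and 3.87 at 1 h and 166 and 134 at 3 h. Its 3 h libraries held the highest levels of all 28 models, 39.9% and 33.2% of their summed TPM, and its 1 h libraries lay above every ceiling library.

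Only 2 of the protein-coding models were well expressed without irradiation (above 10 TPM in each library), which no other model of the 28 was. 1110012L19Rik, on the X chromosome, stood at 13.6 and 14.9 TPM untreated, 14.2 and 22.1 at 1 h and 13.1 and 13.8 at 3 h with the wild-type label. With the knockout label, 1110012L19Rik stood at 12.1 and 19.8 TPM untreated, 17.6 and 25.5 at 1 h and 53.01 and 59.7 at 3 h. In the 3 groups with a wide gap between their libraries it was library 2 that was higher, and the 1 h values overlapped the ceiling. 1500009L16Rik, whose human counterpart is known as OCC-1, a transcript overexpressed in colon carcinoma, stood at 12.1 and 12.1 TPM untreated, 10.5 and 16.2 at 1 h and 16.1 and 13.5 at 3 h with the wild-type label. 1500009L16Rik stood at 12.4 and 13.3 TPM untreated, 14.4 and 14.1 at 1 h and 37.1 and 41.2 at 3 h with the knockout label. Its 1 h libraries lay inside the ceiling.

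Other protein-coding models started near 0. D630023F18Rik stood at 0.23 and 0.19 TPM untreated, 0.05 and 0.11 at 1 h and 0.16 and 0.12 at 3 h with the wild-type label. D630023F18Rik stood at 0.06 and 0 TPM untreated, 0.32 and 0.55 at 1 h and 8.45 and 7.56 at 3 h with the knockout label. Both of its 1 h libraries labelled knockout were just above the ceiling. 1700003E16Rik stood at 0.98 and 0.20 TPM untreated, 0.67 and 0.50 at 1 h and 0.39 and 1.19 at 3 h with the wild-type label. 1700003E16Rik stood at 0.43 and 0.46 TPM untreated, 0.47 and 0.32 at 1 h and 10.2 and 7.19 at 3 h with the knockout label, so its 1 h mean was no higher than its untreated mean. The remaining protein-coding models had 3 h means of 4.90 TPM (Gm49380, SD 0.700, n = 2), 4.05 TPM (2810459M11Rik, SD 0.587, n = 2) and 3.95 TPM (Gm43951, SD 0.615, n = 2).

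Of the noncoding models, 9230114K14Rik and C130083M11Rik share a locus on chromosome 5: the latter lies within the former on the opposite strand, with no exon in common. 9230114K14Rik, a processed transcript, stood at 0.88 and 0.90 TPM untreated, 2.22 and 1.84 at 1 h and 1.82 and 2.04 at 3 h with the wild-type label. 9230114K14Rik stood at 1.51 and 1.07 TPM untreated, 1.41 and 4.18 at 1 h and 28.9 and 44.7 at 3 h with the knockout label. The 1 h pair straddled the ceiling: library 2 lay above it and library 1 inside. C130083M11Rik, a long intergenic RNA, stood at 0.54 and 0.71 TPM untreated, 0.72 and 0.38 at 1 h and 0.88 and 1.18 at 3 h with the wild-type label. C130083M11Rik stood at 0.45 and 0.88 TPM untreated, 1.31 and 0.83 at 1 h and 19.6 and 18.8 at 3 h with the knockout label, and again only 1 of the 1 h libraries passed the ceiling. Since no strand setting is given in the sources used here, reads of models on opposite strands of one locus cannot be separated with certainty.

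The other long intergenic RNAs were at or near 0 outside the 3 h group labelled knockout. 1700003M07Rik stood at 0 and 0.88 TPM untreated, 0 and 0.37 at 1 h and 0.50 and 1.15 at 3 h with the wild-type label. 1700003M07Rik stood at 0.35 and 0.70 TPM untreated, 0.70 and 1.04 at 1 h and 16.2 and 17.4 at 3 h with the knockout label. Its 1 h values lay inside the ceiling. Gm9949 stood at 0.66 and 0.10 TPM untreated, 0 and 0.15 at 1 h and 0.12 and 0 at 3 h with the wild-type label. Gm9949 stood at 0.05 and 0 TPM untreated, 0.11 and 0.21 at 1 h and 14.5 and 11.2 at 3 h with the knockout label, with no 1 h library above the ceiling. Gm20703 was listed at 0 in 10 libraries and stood at 2.39 and 2.85 TPM at 3 h with the knockout label. 2310008N11Rik was listed at 0 in all 8 ceiling libraries and, with the knockout label, stood at 0 and 0.71 TPM at 1 h and 1.56 and 1.60 at 3 h. For both, a level of 0 in TPM cannot be turned into a limit, because the read depth is unknown.

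At the Mir34a locus, Gm37795 stood at 0.04 and 0.13 TPM untreated, 0 and 0.05 at 1 h and 0.08 and 0.03 at 3 h with the wild-type label. Gm37795 stood at 0.13 and 0.07 TPM untreated, 3.04 and 2.12 at 1 h and 8.73 and 7.93 at 3 h with the knockout label. All 4 irradiated libraries labelled knockout lay well above the other 8. Gm13067 was listed at 0 in 10 libraries, both 1 h libraries labelled knockout included, and stood at 1.45 and 1.10 TPM in the 3 h libraries of that label. The next named gene downstream, Gpr157, an orphan receptor gene on the same strand, differed by a log2 of 0.17 (SE 0.196; adjusted p = 0.698, limma) between 3 h and untreated libraries labelled knockout.

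**Figure D2:**
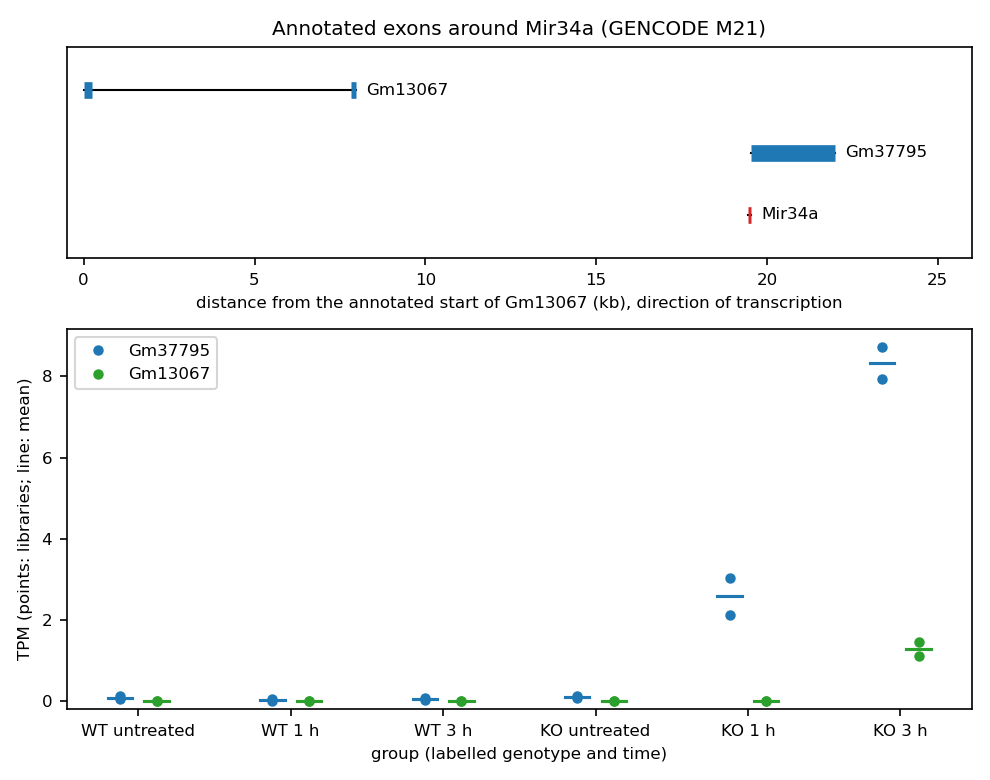
Top, annotated exons (boxes) of Gm13067, Gm37795 and the Mir34a hairpin along the direction of transcription, in kb from the start of Gm13067. Bottom, TPM of both models in each group (points, libraries; lines, means of 2): Gm37795 is at 2.12 to 3.04 at 1 h and 7.93 to 8.73 at 3 h with the knockout label, and Gm13067 leaves 0 only at 3 h.

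The remaining models, antisense and other RNAs and pseudogenes, had 3 h means of 5.26 TPM or less. Gm39325, antisense to Usp2, stood at 0 and 0.31 TPM untreated, 0.07 and 0 at 1 h and 0 and 0 at 3 h with the wild-type label. Gm39325 stood at 0.23 and 0 TPM untreated, 0.67 and 0.55 at 1 h and 2.73 and 3.16 at 3 h with the knockout label, and both of its 1 h libraries lay above the ceiling. Gm13703, antisense to Gpr155, was listed at 0 in all 8 ceiling libraries and stood at 0.16 and 0.38 TPM at 1 h and 1.51 and 1.5 at 3 h with the knockout label. It, too, was above the ceiling in both 1 h libraries, by less than 1 TPM. Gm27040, antisense to Hs3st4, was listed at 0 in the same 8 and stood at 0.26 and 0 TPM at 1 h and 1.00 and 1.71 at 3 h.

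2900052L18Rik, a processed transcript, stood at 0.58 and 1.12 TPM untreated, 0.48 and 1.54 at 1 h and 1.18 and 1.43 at 3 h with the wild-type label. 2900052L18Rik stood at 1.09 and 0.84 TPM untreated, 1.06 and 0.87 at 1 h and 5.09 and 5.42 at 3 h with the knockout label, with 1 h values inside the ceiling. 5033404E19Rik, a transcribed pseudogene whose reads may be shared with its parent gene, stood at 0.05 and 0 TPM untreated, 0.05 and 0 at 1 h and 5.62 and 4.62 at 3 h with the knockout label, and at 0 and 0.17 TPM untreated, 0 and 0.07 at 1 h and 0 and 0 at 3 h with the wild-type label. The others had 3 h means of 4.68 TPM (Gm15417), 3.80 (Gm44911), 2.54 (D030025P21Rik), 2.40 (Gm45597), 2.14 (5830418P13Rik), 1.97 (Gm10505) and 1.67 (4930423D22Rik). Gm44911 is a processed pseudogene, with the same doubt about its reads. Gm10505 holds the gene of another microRNA, Mir7216, in an intron on its strand.

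The 2-fold limit of the rule divides a continuous range. Just inside it stood Gm43951 (lower 3 h value 3.51 TPM, ceiling 1.25, ratio 2.00) and Gm27040 (1.00 TPM, ceiling 0, ratio 2.00). Just outside it stood Gm13056 (2.52 TPM, ceiling 0.81, ratio 1.94) and Gm36696 (0.94 TPM, ceiling 0, ratio 1.94). In 5 models all 8 ceiling libraries were listed at 0, so that membership rests on the 3 h value and on the 1 TPM added. Of named genes, 369 of 13490 tested met the same rule (2.735%). The rule turned round, with the 3 h libraries labelled knockout at 1/2 or less of the lowest ceiling library, was met by 1 catalogue-named model and by 74 named genes (0.5486%).

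The 1 h libraries labelled knockout were not used in choosing the models. The libraries they are compared with, untreated or at 1 h with the wild-type label, were part of the ceiling. On that ceiling the 28 were chosen to be low, and the spread of the fit also draws on libraries that the rule used. Calls and p-values of the 28 at 1 h are therefore descriptions, not independent tests. Over all genes, 13 of 15535 were called higher at 1 h than untreated with the knockout label (0.0837%; limma on log2(TPM + 1), adjusted p under 0.05 over all genes tested), and 1 of the 28 was among them. This was Gm37795, with a log2 difference of 1.69 (SE 0.186; adjusted p = 0.0202, limma). It was the only one called of the 2003 catalogue-named models tested (0.0499%). For 1700007K13Rik the log2 difference was 1.16 (SE 0.183; adjusted p = 0.0855, limma), and the adjusted p was 0.0269 with the replicate number as a block, which made 2 of the 28 and 39 of all genes called higher. The median log2 difference of the 28 was 0.17, beside -0.06 over all genes tested. That gap is a description, since the untreated libraries were part of the ceiling on which the 28 were chosen to be low. An unadjusted p under 0.05, in either direction, was given by 1407 of the 15535 genes and by these 4 of the 28: the pair above, D630023F18Rik with 0.47 (SE 0.171; adjusted p = 0.438, limma) and Gm39325 with 0.54 (SE 0.202; adjusted p = 0.468, limma).

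The call of Gm37795 is sensitive to the number of libraries and to the scale of low values. It was lost with 0.1 in place of 1 added to TPM, with all 12 libraries kept. Both 1 h values, 3.04 and 2.12 TPM, were above all 8 ceiling libraries, but the adjusted p ranged from 0.0101 to 1 over 20 alternatives and the call was kept in 7 of them. With 1 library left out at a time it was kept in 2 of 12, those without a 1 h library labelled wild type. It was lost without both 1 h libraries numbered 2, where the log2 difference was 1.88.

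Against the 1 h libraries labelled wild type, 6 of 15535 genes were called higher in the 1 h libraries labelled knockout (0.0386%; 12 with the block), and Gm37795 was again the 1 of the 28 among them, with a log2 difference of 1.79 (SE 0.186; adjusted p = 0.0282, limma). That call was kept in 4 of 20 alternatives and in 0 of the 12 fits with 1 library left out. For 1700007K13Rik the difference was 1.09 (SE 0.183; adjusted p = 0.297, limma). This comparison shares its knockout-labelled libraries with the one above. The difference between the 1 h responses of the labels, tested as an interaction, was 1.77 for Gm37795 (SE 0.262; adjusted p = 0.326, limma) and 1.28 for 1700007K13Rik (SE 0.259; adjusted p = 0.880, limma). That test called 1 of 15535 genes, and none of the 28, so it does not set them apart from the rest.

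By order alone, both 1 h libraries labelled knockout lay above all 8 ceiling libraries for 5 of the 28 (17.9%): Gm37795, 1700007K13Rik, Gm39325, Gm13703 and D630023F18Rik. The same held for 158 of 15535 genes (1.02%) and for 15 of the 2003 catalogue-named models (0.749%). The ceiling values were part of the rule, so this share is a description.

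**Figure D3:**
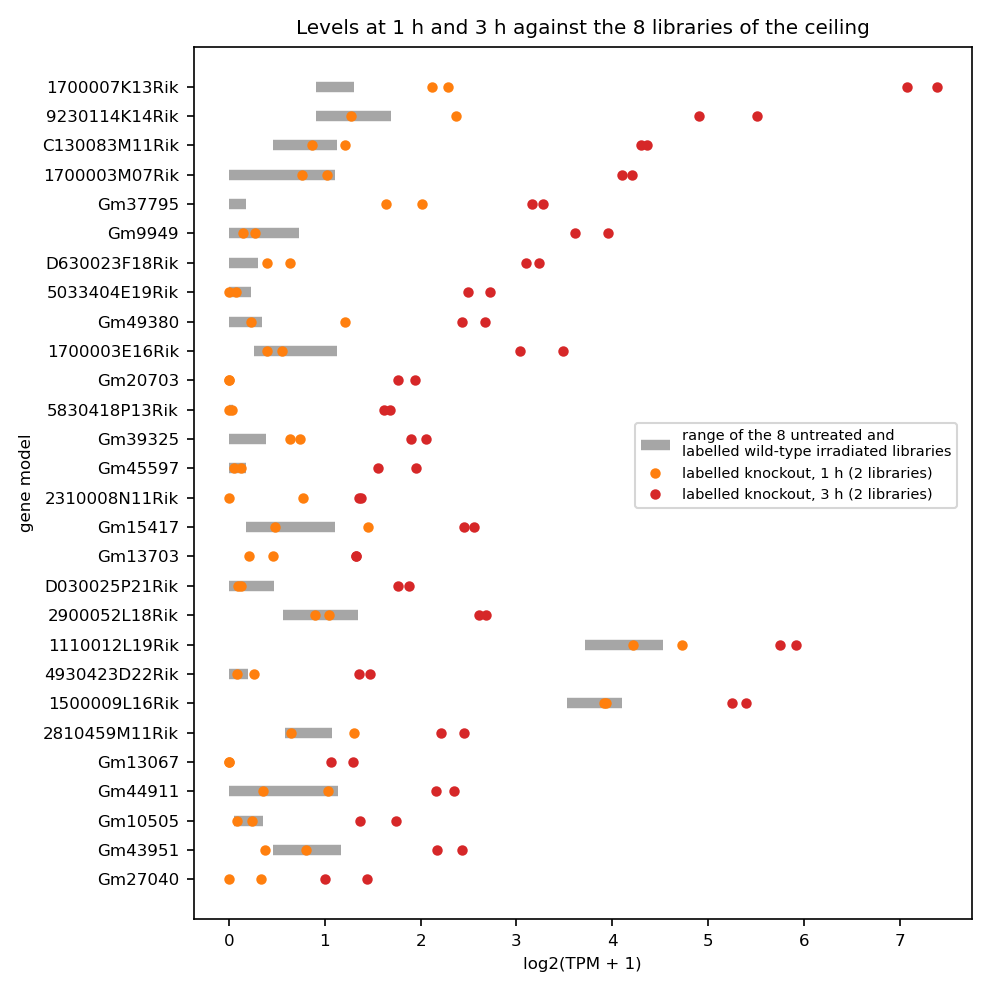
log2(TPM + 1) of each model (vertical): grey bars span the 8 ceiling libraries, orange points are the 2 libraries at 1 h and red points the 2 at 3 h with the knockout label. Red points lie right of the bars by the rule; both orange points lie right of the bar in 5 of the 28.

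The size of the 1 h step differed among the models. As a share of the 3 h rise over untreated libraries, from the means with the knockout label, it had a median of 2.01% over the 28 and passed 10% in 7. The largest shares were 30.1% for Gm37795, 22.5% for 2310008N11Rik, 17.9% for Gm13703, 17.5% for Gm39325, 14.3% for Gm49380, 13.9% for 2810459M11Rik and 13.8% for 1110012L19Rik. In 2310008N11Rik, Gm49380 and 2810459M11Rik that share comes from 1 of the 2 libraries. It was 1.71% for 1700007K13Rik, whose 1 h and 3 h means were 3.62 (SD 0.361, n = 2) and 150 TPM (SD 23.0, n = 2).

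Known p53 targets are set beside these steps. Of 58 tested genes of a p53 target list, 5 were called higher at 1 h with the knockout label (8.62%) and 46 at 3 h (79.3%), with median log2 differences of 0.53 and 2.29 and none called lower. The count of 5 at 1 h was 15 with the replicate block, 0 with only the groups compared, 1 without either untreated library labelled knockout and 2 without either 1 h or either 3 h library of that label. It was 3 without either 3 h library labelled wild type or with no filter on low values, and 1 without both 1 h libraries numbered 2. The called genes at 1 h were Cdkn1a with 3.47 (SE 0.187; adjusted p = 0.000498, limma), the stress sensor Sesn2 with 2.74 (SE 0.214; adjusted p = 0.00363, limma), Inka2, an inhibitor of the kinase Pak4, with 2.24, the cell death gene Pmaip1 with 2.51 (both adjusted p = 0.0202, limma) and Phlda3, an inhibitor of Akt, with 3.42 (adjusted p = 0.0286, limma). Their rise at 1 h was 15.4% of the 3 h rise for Cdkn1a, 27.5% for Sesn2, 20.5% for Inka2, 5.31% for Pmaip1 and 39.2% for Phlda3. These genes were picked by their 1 h calls, so their shares do not stand for the other targets tested. The share was not taken over the 58 and cannot be set against the median share of the 28 models. The list was assembled with results of these data known.

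Genes next to the 28 models were not used in choosing them. For each model the nearest named gene on each side and every named gene overlapping it were taken from the annotation, 63 genes in all, of which 45 were high enough to test. Between 3 h and untreated libraries labelled knockout, 8 of the 45 were called higher (17.8%) and 3 lower (6.67%), beside 971 (6.25%) and 912 (5.87%) of 15535 genes (limma, adjusted p under 0.05). Of those called higher, Fam196a, Bfsp2 and Ltbp2 reached 1 TPM only in the 3 h libraries labelled knockout. They thus entered the 45 only through the group in which they are high. The shares, and the p-values and calls of these genes, are a description. With median-of-ratios size factors in place of TPM scaling, 9 and 2 of the 45 were called, beside 1312 higher and 806 lower of all genes. With the replicate block, 9 were called higher and 7 lower, beside 1721 and 2813 of all genes.

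Of the 11 called neighbours, 6 overlap their model and 1 starts head to head with it. In the annotation, 10 of the 28 models overlap a named gene, 8 of them on the opposite strand, 5 start head to head with one within 1000 bases, and 13 stand apart. Of the overlapping neighbours, 5 of 8 tested were called higher and 1 lower, with a median log2 difference of 1.27. Fam196a, Bfsp2 and Ltbp2, which passed the low-value filter only through their 3 h values, are among the 5. Of the head-to-head ones, 1 of 5 was called higher. Of those apart, 2 of 32 were called higher and 2 lower, with a median of -0.07. Where exons of a model and its neighbour overlap, reads can have been given to either, so these pairs are not independent measurements. The difference between the arrangements was not tested.

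Among overlapping neighbours, Fam196a, a gene of inhibitory synapses, had the largest difference. Fam196a stood at 0.28 to 0.63 TPM in the 6 libraries labelled wild type and, with the knockout label, at 0.31 and 0.53 untreated, 0.29 and 0.98 at 1 h and 29.1 and 29.3 at 3 h. The log2 difference at 3 h was 4.41 (SE 0.227; adjusted p = 2.33e-05, limma). Fam196a passed the low-value filter only through its 3 h values, so this p is a description. Gm45597, at 1.94 and 2.86 TPM at 3 h, is a single-exon model in an intron of Fam196a on the same strand. Dock1, which overlaps Gm45597 on the other strand, differed by -0.21 (SE 0.166; adjusted p = 0.505, limma).

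Usp2, a deubiquitinating enzyme, is overlapped by both Gm39325 and Gm49380. Exons of both models overlap exons of Usp2 on the opposite strand and overlap each other on the same strand. Usp2 stood at 6.30 and 7.10 TPM untreated, 4.55 and 6.08 at 1 h and 28.7 and 37.9 at 3 h with the knockout label, a log2 difference at 3 h of 2.14 (SE 0.334; adjusted p = 0.00412, limma). Next to Gm49380, Mcam, a cell adhesion molecule of vessels, stood at 10.0 and 14.7 TPM untreated and 60.3 and 70.7 at 3 h (2.33, SE 0.334; adjusted p = 0.00269, limma). Rnf26, a ubiquitin ligase that overlaps Gm49380 on the same strand, was lower, at 59.0 and 65.5 TPM untreated and 35.1 and 38.8 at 3 h (-0.74, SE 0.148; adjusted p = 0.0138, limma). Thus neighbours of one locus moved in both directions.

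With 1 added to TPM, the overlapping neighbours that follow differed by less than Fam196a and Usp2. Their order against Usp2 depends on the settings. Over the alternatives, the log2 difference reached 3.93 for Bfsp2 and 3.02 for Ltbp2, against at most 2.34 for Usp2. It was at most 1.75 for Zbtb7b. Bfsp2, a lens filament protein, with 5830418P13Rik antisense to it, was at 0 in both untreated libraries labelled knockout and at 1.32 and 1.53 TPM at 3 h (1.28, SE 0.169; adjusted p = 0.00179, limma). Bfsp2 was not at 0 in the untreated libraries labelled wild type (0.35 and 0.39 TPM) or at 1 h with the knockout label (0.50 and 0.42). Zbtb7b, a transcription factor of T cell development, with Gm15417 antisense to it, stood at 3.5 and 2.42 TPM untreated and 10.7 and 9.51 at 3 h (1.496, SE 0.274; adjusted p = 0.00909, limma). Ltbp2, a matrix protein, with D030025P21Rik antisense to it, stood at 0.13 and 0.10 TPM untreated and 2.20 and 1.22 at 3 h (1.26, SE 0.236; adjusted p = 0.0101, limma). Bfsp2 and Ltbp2 passed the low-value filter only through their 3 h values, so their p-values are descriptions. Gpr155, overlapped by Gm13703, was not called (0.62, SE 0.295; adjusted p = 0.240, limma).

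Of the neighbours that start head to head with a model, 4 are described. Dhx15, an RNA helicase 157 bases from 9230114K14Rik, stood at 254 and 247 TPM untreated and 183 and 204 at 3 h (-0.37, SE 0.163; adjusted p = 0.200, limma; 0.0400 with the replicate block, which calls it lower). Map3k9, a kinase next to 4930423D22Rik, differed by 0.91 (SE 0.264; adjusted p = 0.0597, limma; 0.0302 with the block, which calls it higher). Wdr54 next to 1700003E16Rik differed by -0.20 (SE 0.316; adjusted p = 0.793, limma) and Txndc17 next to Gm43951 by 0.02 (SE 0.289; adjusted p = 0.990, limma).

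The model with the highest 3 h level had no called neighbour. Beside 1700007K13Rik, the mitochondrial ribosome gene Mrps2 differed by -0.11 (SE 0.138; adjusted p = 0.731, limma) and Ppp1r26 by -0.01 (SE 0.181; adjusted p = 0.990, limma). Farther away, Zfp703, a zinc finger repressor beyond 2310008N11Rik, stood at 36.1 and 31.8 TPM untreated and 64.1 and 61.7 at 3 h (0.87, SE 0.200; adjusted p = 0.0247, limma). Nuak1, a kinase beyond 1500009L16Rik, was lower, at 21.3 and 24.0 TPM untreated and 8.87 and 9.22 at 3 h (-1.23, SE 0.143; adjusted p = 0.000933, limma). Tgif1, a homeobox repressor next to Gm20703, was called lower as well (-0.58, SE 0.140; adjusted p = 0.0298, limma), and that call was kept in 9 of 20 alternatives. The gap was 92944 bases for Zfp703, 608142 for Nuak1 and 8160 for Tgif1.

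**Figure D4:**
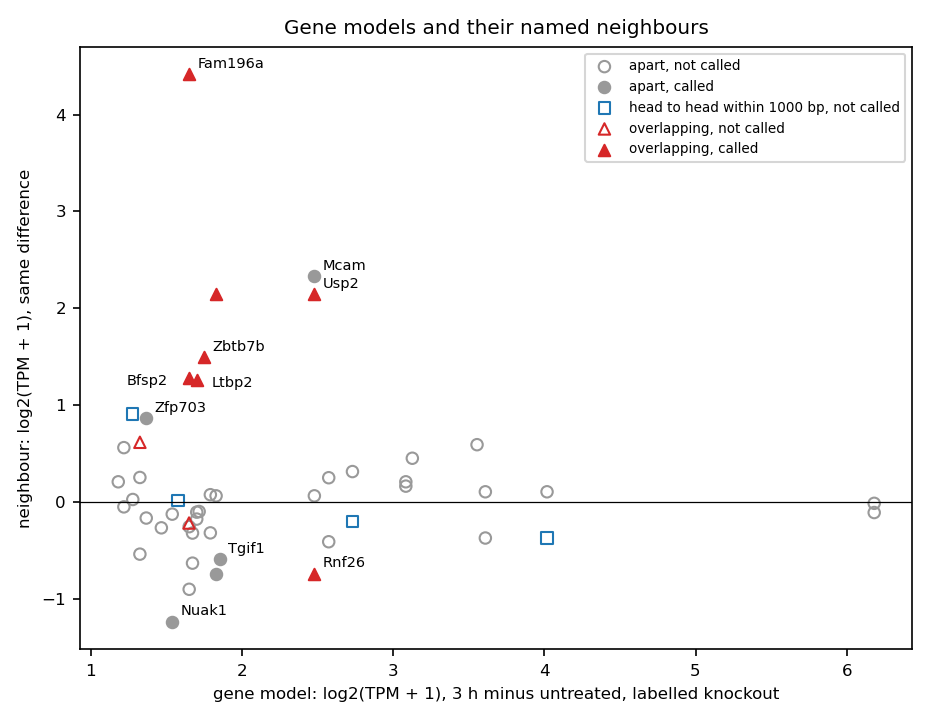
Difference in log2(TPM + 1) between 3 h and untreated libraries labelled knockout, for each model (horizontal) and its named neighbour (vertical). Filled symbols are called by limma at an adjusted p under 0.05; triangles overlap the model, squares start head to head with it, circles stand apart, and a neighbour of 2 models is drawn for each. Of the neighbours drawn, Fam196a at 4.41 is the highest, and most circles lie near 0. A neighbour not reported here is not drawn.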

How the data were processed

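The authors deposited TPM for 53647 gene IDs in 12 libraries, made from paired reads of 75 bases of polyadenylated RNA (about 500 ng of total RNA), per the labels' protocols. Per the submitters' processing notes, the build was GRCm39 and the tools included RSEM 1.3.3, STAR 2.7.3a, DESeq2 1.42.1, HTSeq 0.12.3 and R 4.3.3. Their roles, the annotation release and the strand setting were not given in the sources used here. Similar or overlapping genes compete for reads, which leaves TPM of pseudogenes and antisense models uncertain.

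Symbols came by gene ID from GENCODE M21 (52093 IDs, 97.1%), and types, exons and neighbours from the same annotation on the earlier build GRCm38. Distances are in that build. Promoters and miRNAs are from RefSeq (GRCm38.p6).

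The 15535 genes with 1 TPM or more in at least 2 libraries were fitted with limma 3.58.1 (R 4.3.3) on log2(TPM + 1), where each group has its own mean and all 12 libraries share a spread moderated along its trend. This scale understates changes of low genes. Tests were two-sided with Benjamini-Hochberg adjustment over all 15535 genes, called under 0.05. The fit was tested on simulated data. There the noise was independent between libraries and changes were added only to genes that were not low. That test therefore does not cover low models or same-numbered libraries that deviate together. The members, lists and rules for naming genes were chosen with earlier results of these data known. All 28 members are named. Values in every library are given for the 12 with the highest 3 h mean and the 8 (with ties, 9) with the largest excess at 1 h, and up to 10 called neighbours and 4 called p53 targets with the smallest p are named; Tgif1, Phlda3 and the uncalled neighbours were added after their values were seen. The values of 1 called neighbour are not reported here.

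Same-numbered libraries deviated together from their group means in all 15 pairs of groups (r from 0.327 to 0.796), so the labels' numbers were treated as pairs in a fit with a replicate block. Libraries of a group correlated at 0.935 to 0.974, with at most 1.10% identical values, and none was counted as a copy. Alternatives were another pseudocount, no filter on low values, 2 other scalings, only the groups compared, no trend, another fold in the rule, and each library left out in turn. Plots came from matplotlib 3.10.9 under Python 3.11.15.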

Additional observations from a re-analysis of the deposited data

How the results depend on the processing

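The number of models that meet the rule depends on its settings. It was 62 with a fold of 1.5, 11 with a fold of 3 and 118 with 0.1 in place of 1 added to TPM, and 28 to 57 with 1 library left out (57 and 55 without 3 h library 1 or 2 labelled knockout). For the turned-round rule the count of 1 became 8, 0 and 17 under the same 3 settings and 1 to 11 with 1 library left out. The 1 model called at 1 h against untreated libraries became 0 with a pseudocount of 0.1, with only the groups compared, and without both 1 h libraries numbered 2 (an alternative chosen after seeing the data), 2 with the replicate block, and 0 to 1 with 1 library left out. Against the 1 h libraries labelled wild type the 1 became 0 with a pseudocount of 0.1, with quantile normalization, with only the groups compared, without both 1 h libraries numbered 2, and in each of the 12 fits with 1 library left out. With only the groups compared, fewer genes pass the filter and fewer libraries set the spread. The median log2 difference of the 28 at 1 h, 0.17, was 0.42 with a pseudocount of 0.1 and 0.10 to 0.17 with 1 library left out. The 11 called neighbours became 7 with only the groups compared and 4 to 13 with 1 library left out: 4 without either 3 h library labelled knockout and 6 without untreated library 2 of that label. Under every alternative in which they could be tested, Fam196a, Bfsp2, Mcam, Usp2 and Nuak1 kept their calls. Zbtb7b lost its call in 3, Ltbp2 in 3, Rnf26 in 4, Zfp703 in 5 and Tgif1 in 11. The calls of Fam196a, Bfsp2 and Ltbp2 remain descriptions, since these genes pass the main filter only through their 3 h values. Beyond the values above and in the report, the replicate block changed no other call of a member or neighbour named here; 16 neighbours were called with it. The median over all genes at 1 h, -0.06, was 0.02 with quantile normalization, 0.04 without 1 h library 1 and 0.01 without untreated library 2 labelled knockout. No called gene turned its direction. With TPM alone, depth is unknown, and models under about 1 TPM cannot be given a counting error.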

Other observations

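D130058E05Rik was the 1 catalogue-named model lower at 3 h by the turned-round rule. It stood at 1.03 and 2.50 TPM in the 3 h libraries labelled knockout, at 7.42 and 5.5 TPM in those at 1 h and at 6.76 to 9.82 TPM in the 8 ceiling libraries.

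An ID that the annotation used here pairs with no symbol, ENSMUSG00000118559, met the fold rule too and was left out of the 28 for want of a name. It stood at 6.38 and 7.59 TPM in the 3 h libraries labelled knockout, at 1.00 and 1.62 TPM in those at 1 h and at 0.51 to 0.75 TPM in the 8 ceiling libraries, so that both 1 h libraries lay above the ceiling. These are values with no test.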
